A study of Bostrychia moritziana with 3 samples.

Results

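In the red alga Bostrychia moritziana, 49 of the 36534 transcripts in the deposited listings were abundant in the female gametophyte, stood well below that level in the tetrasporophyte and the male gametophyte, and were still detected in at least one of those other libraries. Members were chosen by their RPKM values (mapped reads per kilobase of transcript and per 1000000 reads, which makes levels comparable between transcripts of different length). A member had at least 100 RPKM in the female and at least 4 times the higher of the tetrasporophyte and male values, and that higher value was above 0.3 RPKM. Where a listing lacked a transcript, its value was set to 0.3 RPKM. A further clause left out transcripts at 10 RPKM or more in one of the other libraries and at 0.3 RPKM or less in the remaining one, and it removed none here. Because all 3 libraries entered this choice, the female excess of the members is a description and supports no finding.

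The series holds 1 library for each of 3 life stages of strain 2746, so the spread between replicates is unknown and no p-value was computed. Per the labels' protocols, female gametophytes were harvested while they formed carpogonial branches. The tetrasporophytes grew from carpospores released after a cross of the sexes and were harvested with mature sporangia, and the male gametophytes were harvested while they formed spermatangial clusters. All were unialgal cultures kept at 20 °C with 16 h of light and 8 h of dark, and the labels name no treatment or introduced genetic change for any stage. By the life cycle, gametophytes are haploid and tetrasporophytes diploid. Whole thalli are mixtures of cell types, so more cells of a type and more RNA per cell cannot be told apart.

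The carpogonial branch is the female sex organ of red algae of this group. Its terminal cell, the carpogonium, is the egg, and it bears a hair-like trichogyne to which the non-motile male cells, the spermatia, attach. After fertilization a small spore-producing generation, the carposporophyte, develops on the female plant, and its spores grow into free-living tetrasporophytes. The female library was made from plants forming carpogonial branches, and the labels describe females with cystocarps as a separate stage, which is not analysed here. The files give transcripts an assembly number only, with no gene name, function or sequence, so neither the roles of the members nor the stage labels could be checked against known genes.

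The read totals of the libraries are not given, so no counting interval can be attached to a value. Low values moved in steps that give a relative depth. If the most common step marks equal read numbers, female depth was 1.12 times and tetrasporophyte depth 0.973 times that of the male library. The female and male listings held 30448 transcripts each and the tetrasporophyte listing 34695. The female library had 720 transcripts at 100 RPKM or more, the tetrasporophyte library 679 and the male library 718.

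Of the 720 abundant female transcripts, 51 (7.08%) were at least 4-fold above both other libraries. The 49 members are these without a pair of transcripts counted at 0.3 RPKM or less in both others, where a missing listing counts as 0.3. ISGT_6323 had 115.76 RPKM in the female, was missing from the tetrasporophyte listing and had 0.10 RPKM in the male. ISGT_15365 had 109.01 RPKM in the female, was likewise missing for the tetrasporophyte and had 0.17 RPKM in the male. Both lie close to the lower limit of 100 RPKM in the female. Among the remaining abundant female transcripts, 102 (14.2%) were 2-fold to 4-fold above the higher other library, 246 (34.2%) were above it by less than 2-fold, and 321 did not exceed it.

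The members' female median was 219 RPKM, with a range from 106.22 to 3453 RPKM. In the tetrasporophyte their median was 19.5 RPKM (range 0.05 to 776 RPKM), and in the male it was 21.6 RPKM (range 0.33 to 763 RPKM). All 49 were listed for all 3 libraries and none was at 0 in any. Most were far from absent elsewhere: 38 reached 10 RPKM in the tetrasporophyte, 40 reached it in the male and 35 reached it in both. Together they made up 4.88% of the summed female RPKM, 0.634% of the summed tetrasporophyte RPKM and 0.576% of the summed male RPKM. All 49 stood among the 1000 most abundant female transcripts, as the rule required, since only 720 reached 100 RPKM in the female. Among the first 100 were 15 members. In the tetrasporophyte 7 were among the first 1000 and 2 among the first 100, and the counts in the male were the same.

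**Figure D1:**
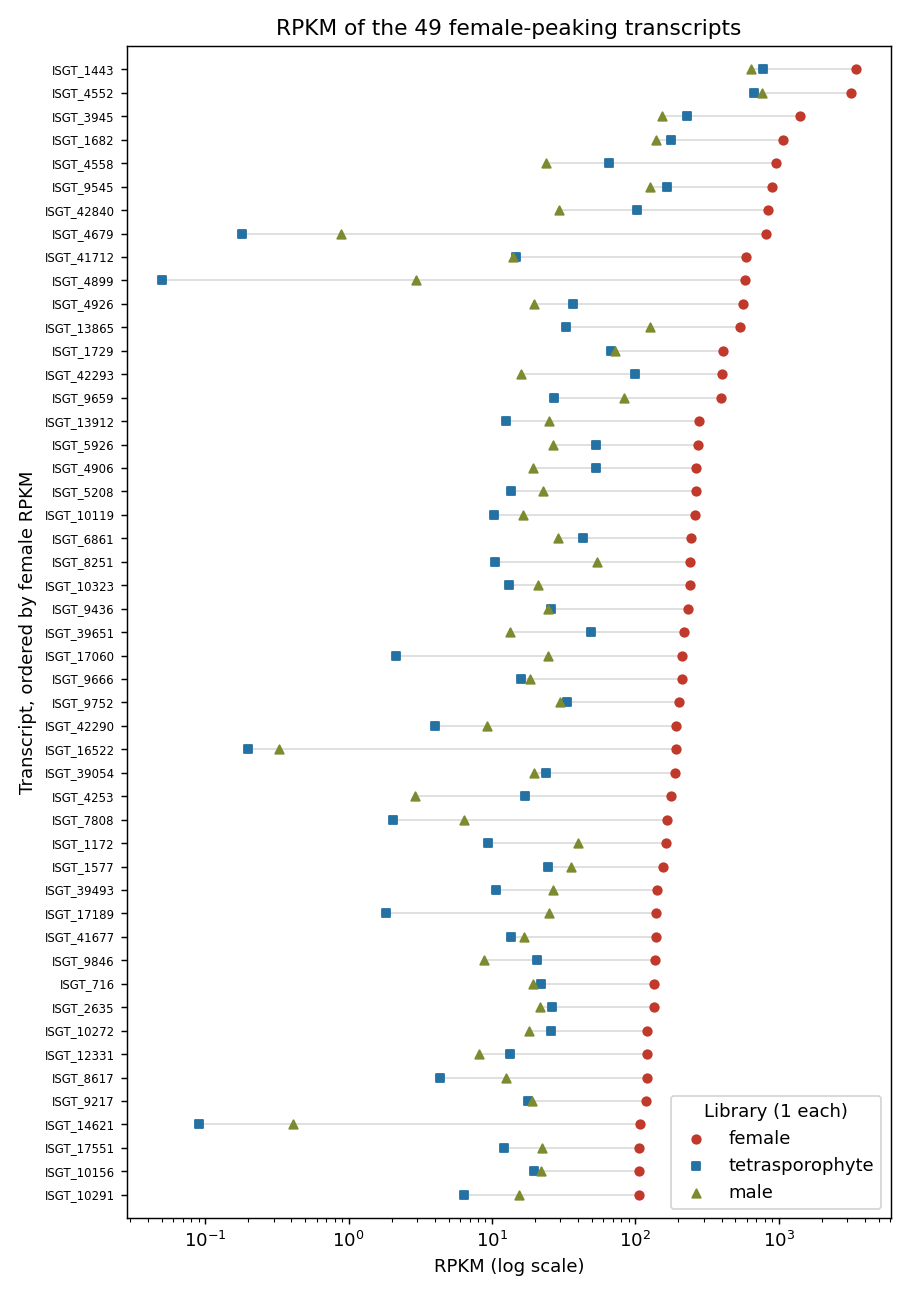
RPKM on a log scale for each of the 49 transcripts, ordered by female RPKM, with 1 circle for the female, 1 square for the tetrasporophyte and 1 triangle for the male library. Most squares and triangles lie between 10 and 100 RPKM, and 4 transcripts (ISGT_4679, ISGT_4899, ISGT_16522 and ISGT_14621) have a square at or below 0.3 RPKM, left of all others.

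The 5 most abundant members held 45.3% of the members' summed female RPKM. ISGT_1443, the most abundant transcript of the female library, had 3453 RPKM in females, 776 in tetrasporophytes and 644 in males. ISGT_4552 was second in the female with 3182 RPKM, and had 678 in tetrasporophytes and 763 in males. Both were thus also among the most abundant transcripts of the other stages: ISGT_1443 ranked 37 in the tetrasporophyte and 40 in the male, and ISGT_4552 ranked 46 and 29 there. This pair alone supplied 29.8% of the members' summed RPKM in the female, 47.1% in the tetrasporophyte and 48.6% in the male.

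ISGT_3945 had 1403 RPKM in females, 230.0 in tetrasporophytes and 155 in males. ISGT_1682 had 1072 RPKM in females, 177 in tetrasporophytes and 140.2 in males. These had nearly the same profile, 6.10-fold and 6.06-fold above the tetrasporophyte, the higher of the other stages in each case. ISGT_4558, the fifth, differed from them: it had 955 RPKM in females, 65.25 in tetrasporophytes and 23.92 in males. Its female value was 14.6 times that of the tetrasporophyte and 39.9 times that of the male.

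Among the members the ratio of female to higher other RPKM did not order with level: its Spearman correlation with female RPKM was 0.00 over the 49 transcripts, which share the same 3 libraries. Female RPKM enters both quantities and the rule cuts both, so this value is a description. By female level, the median ratio was 6.73 between 100 and 200 RPKM and 5.85 between 200 and 500 RPKM. It was 15.0 between 500 and 1000 RPKM and 5.25 at 1000 RPKM or more. Over all 49 members the median ratio was 6.26. It lay between 4 and 5 for 12 members, between 5 and 8 for 16, between 8 and 16 for 14, and at 16 or more for 7. By definition this ratio is the smaller of a member's ratios to the other libraries, so the medians for each library alone cannot be lower. The median ratio of female to tetrasporophyte was 10.3 and that of female to male 9.4.

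The 4 largest ratios stood apart from the rest. ISGT_4679 had 812 RPKM in females, 0.18 in tetrasporophytes and 0.88 in males, a ratio of 923 to the male. ISGT_16522 had 192 RPKM in females, 0.20 in tetrasporophytes and 0.33 in males, a ratio of 583. ISGT_14621 had 108 RPKM in females, 0.09 in tetrasporophytes and 0.41 in males, a ratio of 264. These 3 met the condition of detection elsewhere by a male value under 1 RPKM, which for ISGT_16522 lay just above the 0.3 RPKM limit.

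ISGT_4899 was the fourth, with 585 RPKM in females, 0.05 in tetrasporophytes and 2.97 in males, a ratio of 197 to the male. The tetrasporophyte value of all 4 was at or below 0.3 RPKM, and no other member was that low in either library. In profile these 4 resembled the 2 transcripts set aside as restricted to the female, and differed from the remaining members by a gap: the next ratio was 40.3, for ISGT_41712. That transcript had 592 RPKM in females but also 14.69 RPKM in tetrasporophytes and 13.96 in males.

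ISGT_7808 and ISGT_42290 completed the members at 16-fold or more. ISGT_7808 had 166 RPKM in females, 2.03 in tetrasporophytes and 6.44 in males. ISGT_42290 had 194 RPKM in females, 4.01 in tetrasporophytes and 9.29 in males. With the 4 above, they were the only members whose higher other value was under 10 RPKM, and in all 6 of them that higher value was the male's. In 3 of the 6 both values were under 1 RPKM. With values under 0.3 RPKM raised to 0.3, the log2 ratio of tetrasporophyte to male was only -0.14 for ISGT_16522 and -0.45 for ISGT_14621. The direction was not compared with that of other transcripts at such low levels. The remaining 43 members had 10 RPKM or more in another library, among them 7 with 100 RPKM or more. The lowest female value of those 7 was 533 RPKM, and the 4-fold limit by itself requires a high female value of such members.

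**Figure D2:**
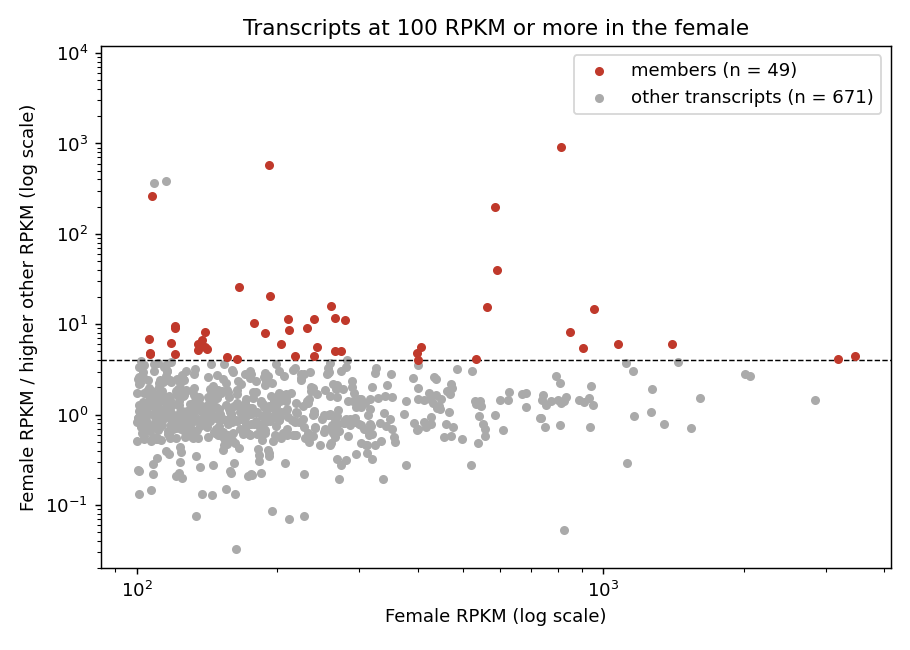
Ratio of female RPKM to the higher of the tetrasporophyte and male RPKM against female RPKM, both on log scales, for the 720 transcripts at 100 RPKM or more in the female. The dashed line is the 4-fold limit; the members in red extend the upper edge of the grey cloud up to 40.3-fold, and 4 members lie at 197-fold or more beside the 2 grey transcripts restricted to the female.

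The members were spread over all levels of female abundance. Since female RPKM also enters the 4-fold rule, their share per level is a description only. They were 21 of the 444 transcripts between 100 and 200 RPKM (4.73%), 16 of 211 between 200 and 500 RPKM (7.58%), 8 of 48 between 500 and 1000 RPKM (16.7%) and 4 of 17 at 1000 RPKM or more (23.5%). Transcripts chosen by the matching rule in the other libraries, by the same construction, had shares from the lowest class to the highest of 6.94%, 11.7%, 25.4% and 29.4% in the tetrasporophyte, and 11.2%, 25.7%, 30.2% and 52.9% in the male. At 1000 RPKM or more the order of the libraries rests on few transcripts: with sums scaled to 1000000 the female and tetrasporophyte shares were 35.3% each, from 6 of 17.

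Values lay close on both sides of each limit of the rule. Just inside the 4-fold limit were ISGT_42293 with a ratio of 4.0, ISGT_1172 with 4.11 and ISGT_4552 with 4.17. Just outside were ISGT_1697 with 3.98, ISGT_16993 with 3.89 and ISGT_1711 with 3.86, each with the male as the higher other library. ISGT_1697 had 282 RPKM in females, 56.89 in tetrasporophytes and 70.77 in males. ISGT_16993 had 102 RPKM in females, 0.41 in tetrasporophytes and 26.23 in males, so that the tetrasporophyte was its low library. ISGT_1711 had 119 RPKM in females, 16.09 in tetrasporophytes and 30.70 in males.

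At the limit of 100 RPKM the members just inside were ISGT_10291, ISGT_10156 and ISGT_17551, with 106.22, 106.81 and 106.87 RPKM in the female. In the tetrasporophyte they had 6.40, 19.51 and 12.22 RPKM, and in the male 15.57, 22.12 and 22.54 RPKM, in the same order. Just outside were ISGT_2752, ISGT_5002 and ISGT_17668, with 98.54, 92.72 and 92.27 RPKM in the female. Of these, ISGT_5002 had 1.04 RPKM in tetrasporophytes and 8.41 in males, while ISGT_2752 and ISGT_17668 had between 11.03 and 22.82 RPKM in both.

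The rule takes the higher of the tetrasporophyte and male values and so does not fix which of them it is. The tetrasporophyte was higher for 22 members (44.9%) and the male for 27, and the median log2 ratio of tetrasporophyte to male was -0.14. Among the 671 other abundant female transcripts 52.2% were higher in the tetrasporophyte, with a median log2 ratio of 0.04. Among all 20950 transcripts with at least 1 RPKM in either library 48.1% were, with a median of -0.05. For these ratios, values under 0.3 RPKM were raised to 0.3. The tetrasporophyte and male were less than 2-fold apart for 28 members (57.1%), against 56.6% of the other abundant female transcripts and 55.7% of all transcripts. The members' split between the other stages was thus close to that of transcripts in general.

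The tetrasporophyte was at least 4-fold above the male for 2 members (4.08%), against 9.39% of the other abundant female transcripts and 8.4% of all transcripts. ISGT_42293 had 400.07 RPKM in females, 99.97 in tetrasporophytes and 16.08 in males, so that the tetrasporophyte was 6.22-fold above the male. ISGT_4253 had 178 RPKM in females, 17.08 in tetrasporophytes and 2.89 in males, a 5.91-fold difference. The next in this direction, short of 4-fold, was ISGT_39651, with 219 RPKM in females, 49.30 in tetrasporophytes and 13.35 in males.

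The male was at least 4-fold above the tetrasporophyte for 5 members (10.2%), against 8.2% of the other abundant female transcripts and 15.2% of all transcripts. ISGT_17189 had 140.26 RPKM in females, 1.82 in tetrasporophytes and 24.93 in males. ISGT_17060 had 212 RPKM in females, 2.16 in tetrasporophytes and 24.72 in males. This pair had nearly the same levels outside the female, and in both the tetrasporophyte was the low library: the log2 ratio of tetrasporophyte to male was -3.78 for ISGT_17189 and -3.52 for ISGT_17060.

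ISGT_4899, described above among the largest ratios, followed with a log2 ratio of -3.31 after its tetrasporophyte value was raised to 0.3 RPKM. ISGT_8251 had 240 RPKM in females, 10.43 in tetrasporophytes and 54.36 in males, a log2 ratio of -2.38. ISGT_1172 had 164 RPKM in females, 9.39 in tetrasporophytes and 39.98 in males, a log2 ratio of -2.09. With the values taken as deposited, without raising those under 0.3 RPKM, ISGT_4679 and ISGT_14621 also passed and the count was 7. With a pseudocount of 1 RPKM it was 3, since the log2 ratios of ISGT_1172 and ISGT_4899 were then -1.98 and -1.92.

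**Figure D3:**
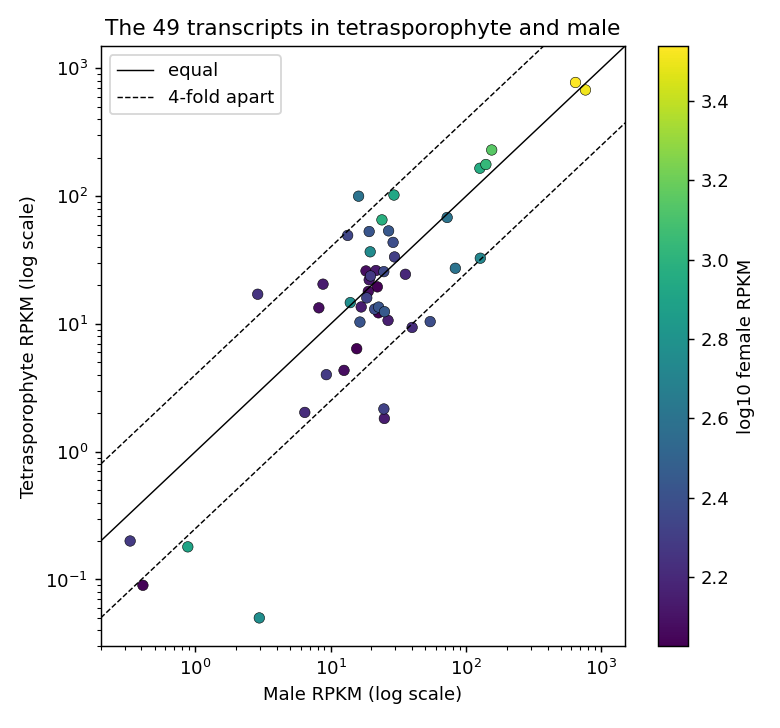
Tetrasporophyte RPKM against male RPKM as deposited, both on log scales, for the 49 transcripts, coloured by log10 of female RPKM. The solid line marks equal values and the dashed lines a 4-fold difference; the 2 transcripts with 678 and 776 RPKM in the tetrasporophyte lie near the solid line at the upper right, and 4 transcripts lie at or below 0.3 RPKM in the tetrasporophyte.

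Over the 49 members the Spearman correlation of tetrasporophyte and male RPKM was 0.60, against 0.39 over the other abundant female transcripts. These are descriptions over transcripts measured in the same libraries. The members are also bounded from above in both, at 0.25 of their female value. Among the 12 members at 500 RPKM or more in the female, 8 were higher in the tetrasporophyte, and among the 37 below that level, 14 were. Of the other abundant female transcripts, 18 of 53 at 500 RPKM or more and 332 of 618 below it were higher in the tetrasporophyte. The 8 members were ISGT_1443, ISGT_3945, ISGT_1682, ISGT_4558, ISGT_9545, ISGT_42840, ISGT_41712 and ISGT_4926, and the other 4 were ISGT_4552, ISGT_4679, ISGT_4899 and ISGT_13865.

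Those not yet described spanned most of the profiles seen. ISGT_9545, with 906 RPKM in females, 165 in tetrasporophytes and 127 in males, had ratios close to those of ISGT_3945 and ISGT_1682. ISGT_42840 had 849 RPKM in females, 102 in tetrasporophytes and 29.35 in males, and ISGT_4926 had 564 RPKM in females, 36.70 in tetrasporophytes and 19.59 in males. ISGT_13865 had 533 RPKM in females, 32.69 in tetrasporophytes and 128 in males. Its male value was 3.90 times its tetrasporophyte value, whereas in ISGT_4552, the other of the 12 with the male higher and both values over 10 RPKM, the ratio was 1.12.

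With RPKM as deposited, the matching sets of the other stages were larger. By the same rule applied to each library, 49 transcripts peaked in the female, 73 in the tetrasporophyte and 128 in the male. The size of these gaps depended on scaling, and median-of-ratios scaling gave 64 female-peaking transcripts. Between 100 and 200 RPKM it gave 30 in the female, 27 in the tetrasporophyte and 44 in the male, against 21, 27 and 49 as deposited. Between 200 and 500 RPKM it gave 20, 22 and 46, against 16, 24 and 54. Before the conditions on detection elsewhere, 7.08% of the transcripts at 100 RPKM or more in the female were at least 4-fold above both other libraries, against 11.6% in the tetrasporophyte and 20.2% in the male. The median level in the peak library was 219 RPKM in the female set, 262 RPKM in the tetrasporophyte set and 237 RPKM in the male set. The median ratio to the higher other library was 6.26 in the female set, 6.96 in the tetrasporophyte set and 9.82 in the male set. Ratios of 16 or more were reached by 7 of 49 female-peaking transcripts (14.3%), 24 of 73 tetrasporophyte-peaking transcripts (32.9%) and 24 of 128 male-peaking transcripts (18.8%). The sets held 4.88% of the summed RPKM in the female, 5.81% in the tetrasporophyte and 13.9% in the male. With 1 library per stage, none of these differences could be set against a spread between replicates.

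**Figure D4:**
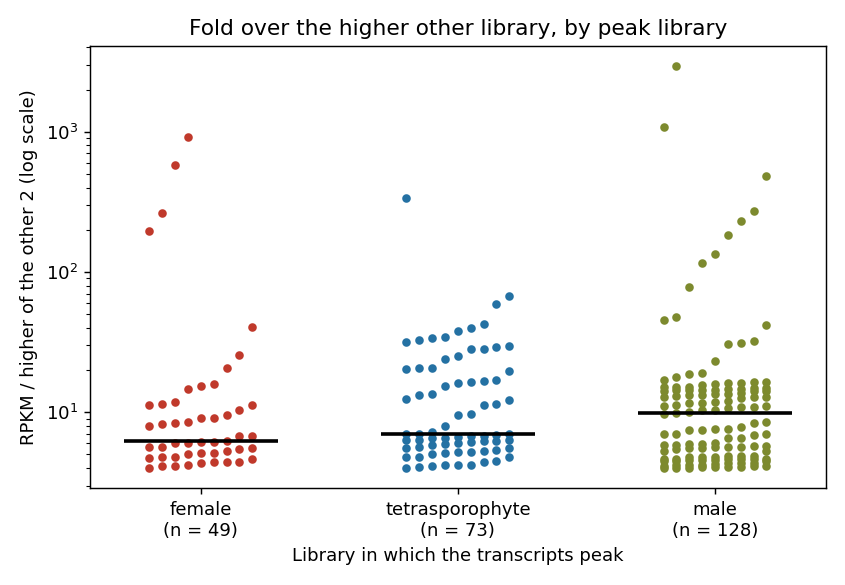
Ratio of RPKM in the peak library to the higher of the other 2, on a log scale, for the 49 female-peaking, 73 tetrasporophyte-peaking and 128 male-peaking transcripts, with 1 point per transcript and a bar at the median (6.26, 6.96 and 9.82). Sideways spread is for display; most female-peaking transcripts lie below 16-fold, with 4 at 197-fold or more.

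The assembly number of a transcript took no part in the choice of members. Of the 49 members, 13 (26.5%) had a number between 10000 and 19999, against 18 of the 671 other abundant female transcripts (2.68%) and 23.7% of all 36534 transcripts. The members' share was thus near that of all transcripts, and the share of the other abundant transcripts was below both. In this range only 31 transcripts reached 100 RPKM in the female. The matching shares were 4.11% of the tetrasporophyte-peaking set against 0.66% of the other abundant tetrasporophyte transcripts, and 9.38% of the male-peaking set against 4.07% of the other abundant male transcripts. Numbers below 10000 held 28 members (57.1%), against 64.2% of the other abundant female transcripts and 26.5% of all transcripts. Numbers of 40000 and above held 5 members (10.2%), against 27.6% of the other abundant female transcripts and 7.98% of all transcripts. How the assembly gave out its numbers is not given in the sources used here, and its part in this pattern was not tested.

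The 13 members of that range included ISGT_14621, ISGT_16522, ISGT_17060 and ISGT_17189, all described above for their large differences. Their female levels ran from 106.22 to 533 RPKM with a median of 140 RPKM, against a median of 242 RPKM in the 36 other members. Their median ratio of female to higher other RPKM was 8.58, against 6.11 in the others. The male was the higher of the other libraries in 11 of the 13 and in 16 of the 36, but also in 14 of the 18 other abundant female transcripts of this range. These figures describe a range of numbers that was singled out after its counts were seen.

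**Figure D5:**
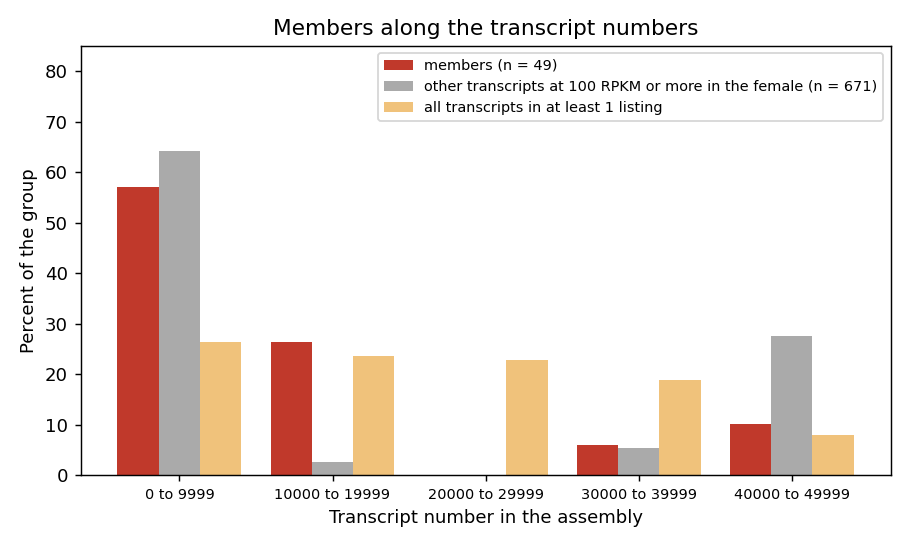
Percent of the 49 members and of the 671 other transcripts at 100 RPKM or more in the female, and of all 36534 transcripts, that fall in each range of 10000 assembly numbers. The range from 10000 to 19999 holds 26.5% of the members, 2.68% of the others and 23.7% of all transcripts, and no transcript of the first 2 groups lies between 20000 and 29999.

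No pair of members was adjacent, and ISGT_42290 and ISGT_42293 were the only pair within 5 numbers. Their profiles differed: ISGT_42290 was 20.8-fold above the higher other library, the male, and ISGT_42293 was 4.0-fold above the higher other library, the tetrasporophyte. Within 20 numbers there were 11 members with another member near them, among them ISGT_4552 with ISGT_4558, ISGT_9659 with ISGT_9666, and ISGT_4899, ISGT_4906 and ISGT_4926 in a row. In this row ISGT_4899 was nearly confined to the female, while ISGT_4906 had 266 RPKM in females, 52.89 in tetrasporophytes and 19.25 in males. For members near other members no matching share over other transcripts was computed, so these counts are a description and show no clustering.

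Another transcript at 100 RPKM or more in the female lay within 5 numbers for 30.6% of the members and for 58.4% of the other abundant female transcripts. Within 20 numbers these shares were 63.3% and 85.2%. Members and other abundant female transcripts also differed in their spread over the number ranges, and its part in these gaps was not tested. Directly adjacent in number to a member were 93 transcripts with at least 1 RPKM in any library, of which 4 (4.3%) were themselves at least 4-fold higher in the female than in both others. The share was 7 of 1038 (0.674%) beside the other abundant female transcripts, and 2.54% of all transcripts at 1 RPKM or more in any library were 4-fold higher in the female. Those 7 include the members ISGT_1577, ISGT_39493, ISGT_42290 and ISGT_42293, whereas members were left out of the 93. The shares beside members and beside the other abundant transcripts are thus not counted alike. ISGT_13864, beside ISGT_13865, had 5.93 RPKM in females, 1.00 in tetrasporophytes and 0.65 in males. ISGT_8250, beside ISGT_8251, had 1.21 RPKM in the female, no listing for the tetrasporophyte and 0.17 RPKM in the male. Its ratio of 4.03 rests on the 0.3 RPKM set for a missing listing. The other pair flanked a single member, ISGT_17551. ISGT_17550 had 11.75 RPKM in the female, was missing from the tetrasporophyte listing and had 0.13 RPKM in the male. ISGT_17552 had 13.09 RPKM in the female, was also missing for the tetrasporophyte and had 0.08 RPKM in the male. Both were thus under 0.3 RPKM in the male and without a tetrasporophyte value, whereas ISGT_17551 between them had 106.87 RPKM in females, 12.22 in tetrasporophytes and 22.54 in males.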

How the data were processed

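RNA of 3 life stages was sequenced in 1 Illumina library each, per the labels' protocols. The authors deposited RPKM, 1 value per transcript and library with 2 decimals, per the file headers; the tools for assembly, alignment and counting, the lengths of the transcripts and the number of reads are not given in the sources used. Values were joined on the transcript number and used without further scaling. Levels are RPKM. Ratios are of RPKM with no pseudocount, and a missing transcript was set to 0.3 RPKM. For tetrasporophyte to male ratios, and for calling transcripts adjacent in number 4-fold higher in the female, values under 0.3 RPKM were raised to 0.3.

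The members, lists and comparisons were chosen with earlier results of these data known. Transcripts named were the 5 highest in the female, the 3 largest ratios, 3 on either side of each limit and the 3 largest differences between tetrasporophyte and male in each direction; other names were chosen after their values were seen. Alternatives were median-of-ratios scaling, sums scaled to 1000000, other folds, minimums, pseudocounts and number distances. Relative depth came from the most common ratio of values between 0.3 and 3 RPKM. The code of the rule was checked on 20000 simulated transcripts, a small part of which were given fixed values. It returned 100% of those set 8-fold and 0% of those set 2-fold higher in the female than in both others. The fixed values and the 4-fold limit decide this outcome, so it measures no sensitivity. With 1 library per stage there was no test. Tools were numpy 2.4.6, scipy 1.17.1, pandas 2.3.3 and matplotlib 3.10.9 under Python 3.11.15.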

Additional observations from a re-analysis of the deposited data

How the results depend on the processing

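Median-of-ratios scaling moves every log2 ratio of female to tetrasporophyte by 0.21 and of female to male by 0.28. Under it the rule gave 64 transcripts, and with sums scaled to 1000000 it gave 56. Both include all 49 members. No member could be lost, because both scalings raise every female ratio and the other limits stayed on deposited values. Without scaling, the rule gave 148 at a fold of 2, 21 at a fold of 8, 73 at a minimum of 50 RPKM and 28 at a minimum of 200 RPKM. Requiring a listing in all 3 libraries, or keeping transcripts high in only one other library, gave the same 49. The share of abundant female transcripts at least 4-fold above both others was 9.31% under median-of-ratios scaling, 8.19% with scaled sums and 2.71% over all transcripts at 0.3 RPKM or more in the female, against 7.08%. Under both scalings 22 members stayed higher in the tetrasporophyte than in the male, and 2 and 5 were 4-fold apart. The 5 became 3 with a pseudocount of 1 RPKM and 7 with values as deposited, an alternative chosen after seeing the data. Members with another member nearby in number were 2 within 5 numbers, 0 within 1 and 11 within 20. No paired analysis was possible because there is 1 library per stage. Unknown read totals leave the precision of the values under 1 RPKM unknown.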
